A study of Mus musculus with 2 samples.

Results

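The 10 genes described here mark resident macrophages, of 55536 annotated genes in the data. They were chosen by symbol, with no threshold on a measured value, but with earlier results of these data known. The counts of calls among them below therefore describe the genes and are no independent test. Of the 10, 6 are expressed by macrophages of many tissues: Csf1r, Cd68, Adgre1, C1qa, Mrc1 and Lyve1. The other 4 are known from Kupffer cells, the resident macrophages of the liver: Clec4f, Cd5l, Vsig4 and Timd4. All 10 had at least 10 counts over both libraries and so entered the test.

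The data are total RNA sequencing of the adrenal gland of male B6CASTF1/J mice, the F1 hybrid of the C57BL/6J and CAST/EiJ strains, aged 25 days, with no treatment named in the labels. There was 1 group of 2 libraries, replicate 1 and replicate 2, each made from 300 ng of RNA with ribosomal RNA reduced and ERCC spike-in transcripts added. The labels of the tissue samples name animals 3 and 4 in that order, but those of the libraries name animal 3 in both cases and the donor label is shared, so a difference between the libraries may be technical. No comparison of conditions is possible, and each difference below is between the libraries.

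Resident macrophages take up dying cells, iron and circulating particles, and most depend on the receptor CSF1R for their survival. The adrenal gland holds such macrophages among its steroid-producing cells and vessels. Kupffer cells sit within the sinusoids of the liver, beside a specialised endothelium and the hepatocytes, and carry scavenger and lectin receptors that most other macrophages lack. In bulk tissue, fewer cells of a type and less RNA per cell cannot be told apart.

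The libraries held 35283841 and 35156690 expected counts, the estimated number of fragments per gene. The labelled tissue had its defining genes: all 6 cortex and medulla genes checked were above 1 TPM in both libraries (a level per transcript length, relative to all listed sequences). The steroid enzyme Hsd3b1 was at 3405 and 2015 TPM and Star, which delivers cholesterol for steroid synthesis, at 3265 and 1840 TPM. Genes of other tissues differed widely between the libraries. The 9 hepatocyte genes checked had a summed level of 108 TPM in replicate 1 against 18603 TPM in replicate 2, and the 6 skeletal muscle genes one of 1143 against 1.84 TPM. None of these 15 genes was at 0 in either library. Their part in the results below was not tested.

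The general macrophage genes were within 1.62-fold between the libraries in TPM, and the Kupffer genes were at 0.20 TPM or less in replicate 1 and at 0.84 to 9.64 TPM in replicate 2. Counts were compared between the libraries after TMM scaling, which sets the bulk of genes to no change, with a two-sided exact binomial test and Benjamini-Hochberg adjustment over 19801 genes. A gene was called higher or lower at an adjusted p of at most 0.05. By this rule 9 of the 10 genes were higher in replicate 2, none was lower, and Cd68 was not called. Of all genes tested, 20.7% were called higher and 18.4% lower. The 4 Kupffer genes were all at least 2-fold higher, which 8.56% of all genes were. Of these 4, 3 were at least 10-fold higher, which 4.2% of all genes were. Clec4f, Cd5l and Vsig4, at 2, 8 and 2 counts in replicate 1, reached the 10 counts needed for the test only through replicate 2. Their calls thus rest on the library where they are high and only describe the libraries. The median log2 ratio, replicate 2 over replicate 1, was 0.52 for the 6 general genes and 6.33 for the 4 Kupffer genes, against -0.01 for all genes tested. With a single library a side, the test takes in counting error and no spread between animals, and it compares these libraries and no conditions.

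**Figure D1:**
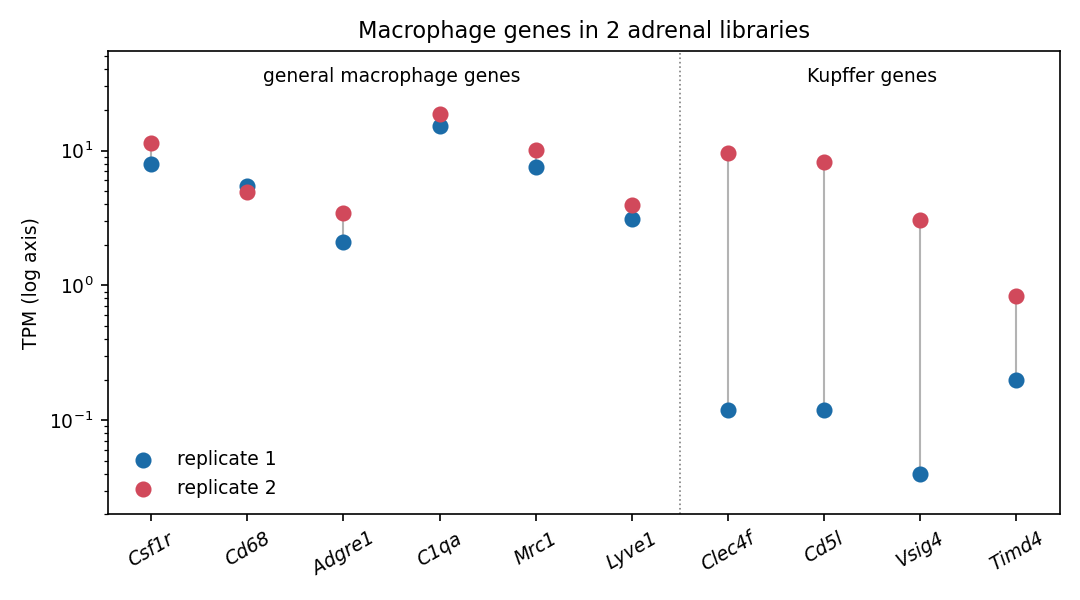
Level of each gene in TPM, on a log axis, in replicate 1 (blue) and replicate 2 (red), with a grey line joining the 2 values. The general macrophage genes have close pairs of points, while those of Clec4f lie at 0.12 and 9.64 TPM and those of Cd5l at 0.12 and 8.22 TPM.

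Among the general genes, C1qa encodes a chain of the complement protein C1q, which macrophages secrete and which tags cells and debris for uptake. It lies on chr4:136895917-136898803 of the mm10 assembly, minus strand. C1qa had 487 counts and 15.15 TPM in replicate 1, and 595 counts and 18.64 TPM in replicate 2, the highest level of the 10 genes in each library. Its mean was 16.9 ± 2.47 TPM (SD, n = 2). The log2 ratio was 0.53, with a 95% counting interval of 0.35 to 0.70 and an adjusted p of 1.45e-08 by the exact binomial test. The ratio to its partner chain C1qb, within a library, was 0.854 in replicate 1 and 0.952 in replicate 2.

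Csf1r encodes the receptor for the growth factors CSF1 and IL34, on which macrophage survival depends, and lies on chromosome 18. It had 1049 counts and 7.93 TPM in replicate 1, and 1277 counts and 11.33 TPM in replicate 2, a mean of 9.63 ± 2.40 TPM (SD, n = 2). Replicate 2 was higher by a log2 ratio of 0.52 (95% counting interval 0.40 to 0.64, adjusted p = 3.13e-17, exact binomial test). The Csf1r locus overlaps Hmgxb3 on the opposite strand, which had 1348 and 1126 counts, and whether the counting used the strand is not given in the sources used here.

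Mrc1 encodes the mannose receptor CD206, an endocytic lectin, on chr2:14229392-14332057, plus strand. It held the most counts of the 10 genes, 1340 and 1771, at 7.54 and 10.02 TPM, with a mean of 8.78 ± 1.75 TPM (SD, n = 2). The log2 ratio was 0.64 (0.54 to 0.74, adjusted p = 8.42e-34, exact binomial test). The ranges of Mrc1 and Csf1r over the libraries overlapped, so these neighbours in level could not be ordered beyond their spread, although Csf1r was the higher in each library.

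Cd68 encodes a heavily glycosylated protein of the late endosome and lysosome, on chr11:69664213-69666153, minus strand. It was the only one of the 10 genes with the higher level in replicate 1. Its counts were 195 and 184 and its TPM 5.49 and 4.95, a mean of 5.22 ± 0.382 (SD, n = 2). The log2 ratio of 0.15 had a counting interval of -0.14 to 0.45 and an adjusted p of 0.491 in the exact binomial test. Scaled by total counts the ratio was -0.08 and scaled by spike-in totals -0.20, so its direction turned with the scaling and it was called under neither.

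Lyve1 encodes a hyaluronan receptor of lymphatic endothelium, of liver sinusoidal endothelium and of a class of macrophages beside vessels. It lies on chr7:110850607-110863239, minus strand. Lyve1 had 255 and 302 counts and 3.11 and 3.93 TPM, a mean of 3.52 ± 0.580 TPM (SD, n = 2). The log2 ratio was 0.48 (0.24 to 0.73, adjusted p = 0.000386, exact binomial test). It was not called when counts were scaled by their totals (0.25, adjusted p = 0.0775) or by spike-ins (0.12, adjusted p = 0.412).

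Adgre1 encodes the adhesion receptor F4/80, the usual surface marker of mouse macrophages, on chr17:57358691-57483527, plus strand. It had 226 and 309 counts and 2.11 and 3.42 TPM, a mean of 2.77 ± 0.926 TPM (SD, n = 2), the lowest mean of the general genes. Its log2 ratio was 0.69 (0.44 to 0.94, adjusted p = 2.67e-07, exact binomial test), with an interval that overlapped that of Mrc1. The ranges of Lyve1 and Adgre1 overlapped, whereas Cd68 lay above both and below Mrc1 in each library.

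The differences of the general genes depended on the scaling. Of the 6, 5 were called higher with TMM, 4 by total counts and 3 by spike-in totals. The 3 called under each of these scalings were Csf1r, Adgre1 and Mrc1, at log2 ratios of 0.16, 0.33 and 0.28 with spike-in totals. C1qa, at 0.17, then missed the threshold with an adjusted p of 0.0863 in the exact binomial test. A change of scaling shifts every gene by 1 constant: the median of all genes tested moved from -0.01 with TMM to -0.24 by total counts and -0.37 by spike-in totals, and all 6 general genes lay above that median under each. An assumed biological coefficient of variation of 0.2 was also used in edgeR's exact test, in place of counting error alone. It called 0 of the 6 general genes and all 4 Kupffer genes. Of all genes, it called 1301 higher and 260 lower. The 3 scalings each tested 19801 genes, and the counts of all genes called moved with the scaling. They went from 4097 higher and 3641 lower with TMM to 2515 and 8524 by total counts and 2138 and 10558 by spike-in totals.

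The 4 Kupffer genes were called higher under each of the 3 scalings. Clec4f encodes a C-type lectin with specificity for galactose-type sugars, whose expression in the mouse is close to restricted to Kupffer cells. It lies on chr6:83644542-83656187, minus strand. Clec4f had 2 counts and 0.12 TPM in replicate 1, and 683 counts and 9.64 TPM in replicate 2. Among 22015 nuclear protein-coding genes it ranked 14856 by TPM in replicate 1 and 6279 in replicate 2. The ratio of scaled counts was 403-fold, with a 95% counting interval of 111 to 3333 that reflects the 2 counts of replicate 1 (log2 ratio 8.65, adjusted p = 3.36e-225, exact binomial test).

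Cd5l encodes AIM, a secreted scavenger protein of tissue macrophages that circulates with IgM, and lies on chr3:87357881-87371073, plus strand. It had 8 counts and 0.12 TPM in replicate 1, and 540 counts and 8.22 TPM in replicate 2. The ratio was 79.6-fold (40.1 to 185, adjusted p = 1.45e-166, exact binomial test). In replicate 2, Clec4f and Cd5l both stood above Cd68, Lyve1 and Adgre1, and in replicate 1 both stood below all 6 general genes.

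Vsig4 encodes CRIg, a complement receptor of the immunoglobulin superfamily through which Kupffer cells clear opsonised bacteria, on chrX:96247203-96293438, minus strand. It had 2 counts and 0.04 TPM in replicate 1, and 137 counts and 3.03 TPM in replicate 2. The ratio was 80.8-fold (21.9 to 674, adjusted p = 3.53e-42, exact binomial test).

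Timd4 encodes TIM-4, a receptor for phosphatidylserine on dying cells, on chr11:46810800-46844332, plus strand. It also marks long-lived resident macrophages of other tissues, including the peritoneum. Timd4 had 14 counts and 0.20 TPM in replicate 1, and 59 counts and 0.84 TPM in replicate 2. Its ratio of 4.97-fold (2.74 to 9.64, adjusted p = 1.14e-08, exact binomial test) was the smallest of the 4, and its counting interval did not reach those of the other Kupffer genes. It had the highest level of the Kupffer genes in replicate 1 and the lowest in replicate 2, so its ratio to Clec4f, which had 2 counts in replicate 1, went from 1.67 to 0.0871 (1.06 to 0.0671 in the second quantification).

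The lower bound of the log2 interval of Timd4, 1.46, lay above the upper bound of every general gene, of which Adgre1 had the highest at 0.94. With spike-in totals the Kupffer log2 ratios were 8.30 for Clec4f, 5.96 for Cd5l, 5.98 for Vsig4 and 1.96 for Timd4, and all 4 were called. The deposited intervals of TPM have no background here, since the share of all genes with intervals that do not overlap was not computed. They did not overlap between the libraries for any of the 4 Kupffer genes, with bounds of 0.0214 to 0.363 and 8.23 to 10.9 TPM for Clec4f and 0.109 to 0.314 and 0.628 to 1.05 TPM for Timd4. Among the general genes they overlapped for Cd68, Adgre1 and Lyve1 and not for Csf1r, C1qa and Mrc1.

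**Figure D2:**
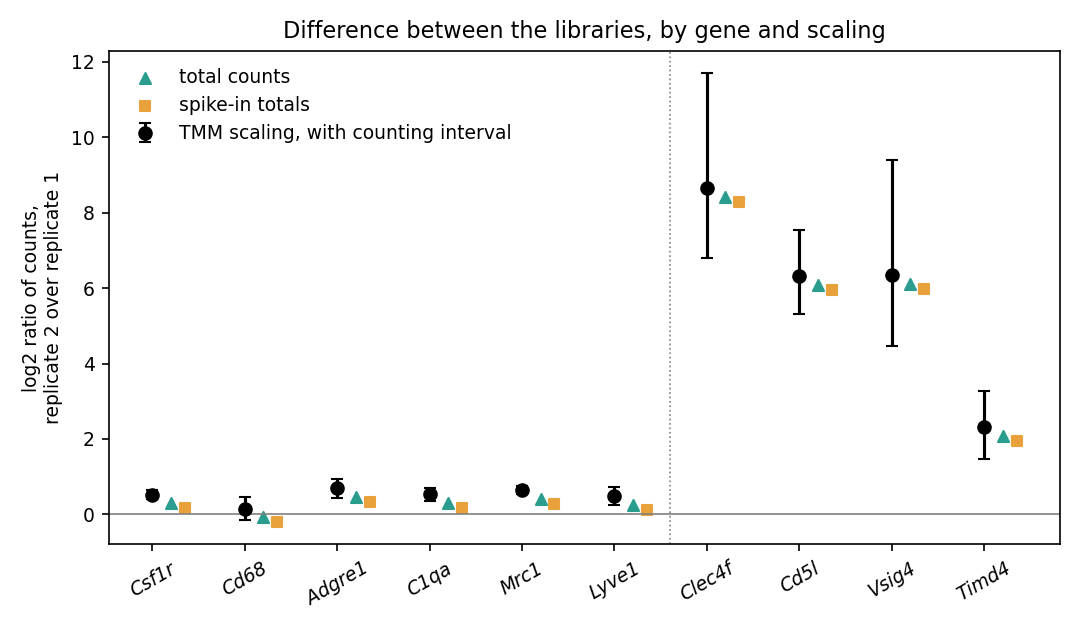
Log2 ratio of counts, replicate 2 over replicate 1, for each gene. Black points with bars are the TMM-scaled ratio and its 95% counting interval, triangles the ratio by total counts and squares by spike-in totals. The general genes sit near 0, with Cd68 on either side of it, and the Kupffer genes lie between 1.96 and 8.65 under the 3 scalings.

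A ratio taken within a library does not depend on scaling. The 4 Kupffer genes summed to 0.48 TPM and the 6 general genes to 41.3 TPM in replicate 1, a ratio of 0.0116. In replicate 2 the sums were 21.7 and 52.3 TPM, a ratio of 0.416, which was 35.8 times as high. Kupffer genes thus made up 1.15% of the TPM of the 10 genes in replicate 1 and 29.4% in replicate 2. As a percent of the Csf1r level, Clec4f went from 1.51 to 85.1, Cd5l from 1.51 to 72.6, Vsig4 from 0.504 to 26.7 and Timd4 from 2.52 to 7.41. The second quantification, made from the reads with another method, gave ratios of sums of 0.0134 and 0.454.

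In TPM, Clec4f differed by 9.52 between the libraries and Cd5l by 8.10, whereas Csf1r differed by 3.40, C1qa by 3.49, Mrc1 by 2.48, Adgre1 by 1.31 and Lyve1 by 0.82. Clec4f and Cd5l thus each differed by more TPM than any general gene. Within the Kupffer genes, Vsig4 was at 0.333 of Clec4f TPM in replicate 1 and 0.314 in replicate 2, and Cd5l at 1.00 and 0.853. The values of replicate 1 rest on 2 counts of Clec4f. Both were on Clec4f-202, a noncoding transcript of 608 nt, and a count on a short transcript weighs more in TPM. By scaled counts Clec4f was 403-fold higher in replicate 2, against 79.6-fold for Cd5l and 80.8-fold for Vsig4. Their counting intervals overlapped, so whether these proportions changed could not be judged.

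Whether the 4 Kupffer genes share regulation was not tested, and 2 libraries give a single ratio per gene. The stretches before their start sites are printed as a description. They come from RefSeq (GRCm38.p6), 5′ to 3′ on the strand of the gene. Those of Cd5l, Vsig4 and Timd4 are the 250 bases before the RefSeq start site. For Clec4f the RefSeq start lies inside the GENCODE gene, so the 179 bases before the GENCODE start are printed, and the rest of its window was searched but is not shown. Clec4f is chr6:83656188-83656366, minus strand. Cd5l is chr3:87357631-87357880, plus strand. Vsig4 is chrX:96293439-96293688, minus strand. Timd4 is chr11:46810549-46810798, plus strand. Capitals mark matches to the searched motifs.
Clec4f: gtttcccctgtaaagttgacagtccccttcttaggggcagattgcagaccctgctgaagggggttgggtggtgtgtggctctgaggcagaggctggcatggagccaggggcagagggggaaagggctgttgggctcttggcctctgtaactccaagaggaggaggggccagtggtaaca
Cd5l: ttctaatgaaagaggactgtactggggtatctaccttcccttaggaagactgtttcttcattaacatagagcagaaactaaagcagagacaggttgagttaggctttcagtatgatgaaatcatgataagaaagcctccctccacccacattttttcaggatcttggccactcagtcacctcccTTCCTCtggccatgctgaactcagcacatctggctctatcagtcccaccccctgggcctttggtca
Vsig4: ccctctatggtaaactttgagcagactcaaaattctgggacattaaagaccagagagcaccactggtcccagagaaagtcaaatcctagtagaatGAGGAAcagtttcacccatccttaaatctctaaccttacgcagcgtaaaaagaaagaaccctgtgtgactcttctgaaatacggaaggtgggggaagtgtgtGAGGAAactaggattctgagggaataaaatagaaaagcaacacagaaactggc
Timd4: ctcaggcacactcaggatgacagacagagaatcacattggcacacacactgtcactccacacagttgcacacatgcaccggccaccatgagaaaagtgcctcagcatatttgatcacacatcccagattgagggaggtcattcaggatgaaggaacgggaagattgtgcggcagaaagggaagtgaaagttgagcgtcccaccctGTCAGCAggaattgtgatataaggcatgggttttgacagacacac

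The letters GAGGAA and GAGGAAGT, cores of sites of the macrophage factor PU.1, TGCTGAC, part of the site of MAF factors, and CACGTG, an E-box, were searched on both strands in windows of 250 bases before to 50 after the RefSeq start. GAGGAA lies within GAGGAAGT. Cd5l held GAGGAA on the reverse strand, printed as TTCCTC, at -66 from the start, and Vsig4 held it at -155 and -53. Timd4 held TGCTGAC on the reverse strand, printed as GTCAGCA, at -45, and Clec4f held none of the motifs. Of 32851 promoter windows, 28.3% held GAGGAA, 3.2% GAGGAAGT, 4.67% TGCTGAC and 7.15% CACGTG, and neither GAGGAAGT nor CACGTG occurred in the 6 of the 10 genes with a window in the table. The other windows were of Cd68, with GAGGAA at -225 and on the reverse strand at 30, and of Mrc1, with it on the reverse strand at -180, -167 and -35. A match is a string of letters and was not tested as a binding site.

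Transcripts of each gene were quantified separately. The 2 counts of Clec4f in replicate 1 were both assigned to Clec4f-202, a noncoding transcript of 608 nt, in both quantifications, and the coding transcript Clec4f-201 had 0 counts there. In replicate 2, Clec4f-201 held 657.64 counts and 84.8% of the gene's TPM, or 71.8% in the second quantification. A count on a short transcript weighs more in TPM, and the unscaled ratio between the libraries was 342 in counts and 80.3 in TPM. Cd5l, C1qa and Timd4 have 1 annotated transcript each, and all Vsig4 counts were on Vsig4-201.

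The general genes were carried mainly by 1 transcript each. Mrc1-201 held 97.7% and 98.1% of Mrc1 TPM. Lyve1-202, annotated as a retained intron, held 18.7% and 25.2% of Lyve1, and 15.8% and 14.8% in the second quantification. Cd68-203, a noncoding transcript, held 14.6% and 5.82% of Cd68. Short transcripts added to 2 values of replicate 2: Csf1r-205, of 416 nt, gave 1.74 of the 11.33 TPM of Csf1r from 18.74 counts, and Adgre1-204, of 342 nt, gave 0.55 of the 3.42 TPM of Adgre1 from 4.52 counts. Both had 0 counts in replicate 1 and in the second quantification. The Csf1r share on Csf1r-202 was 19.7% and 14.6% in the first quantification and 1.39% and 2.23% in the second, so the division of Csf1r among its transcripts depended on the method.

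**Figure D3:**
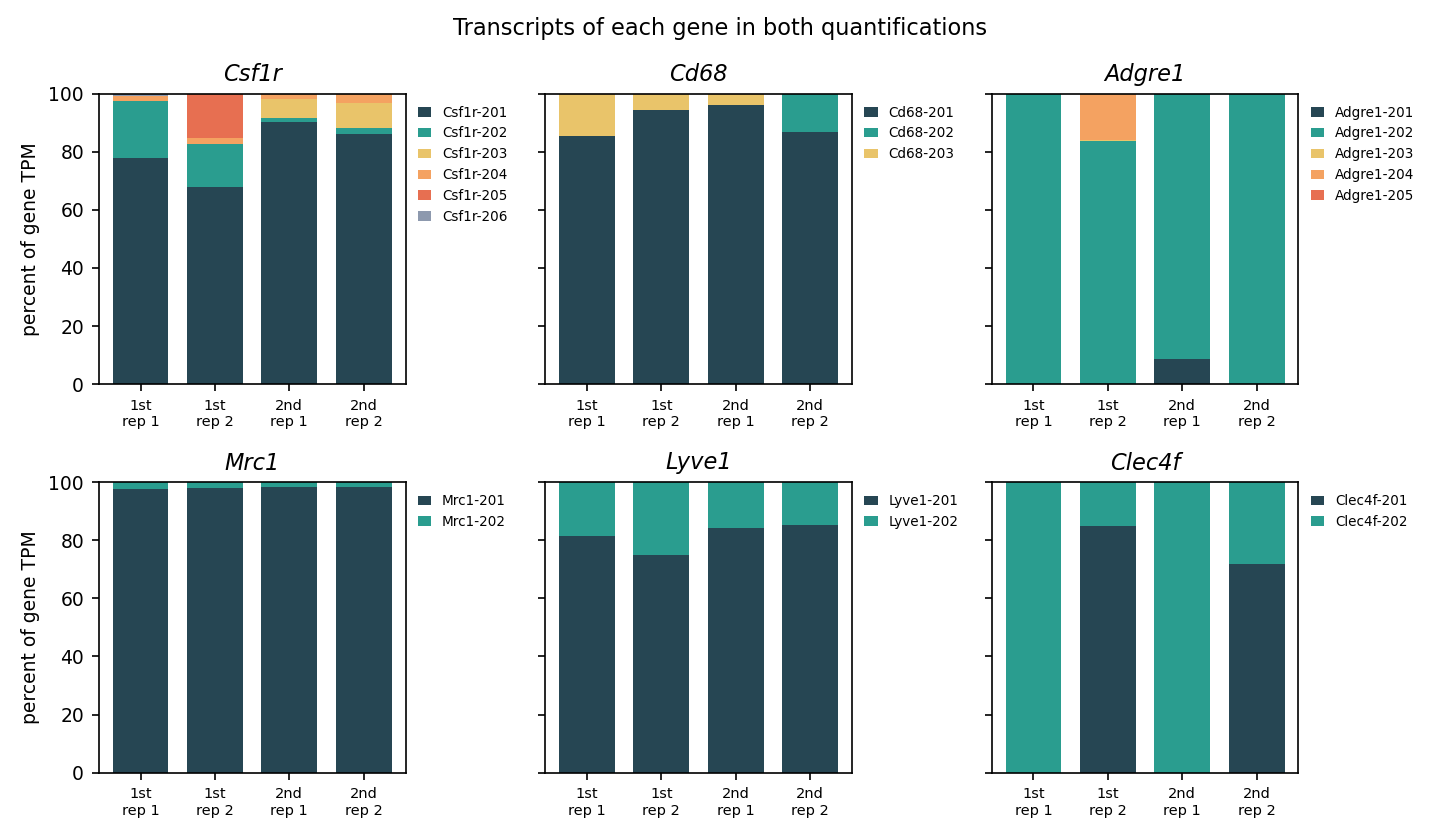
Percent of each gene's TPM on its transcripts, stacked to 100, for the 6 genes with reads on several transcripts, in replicates 1 and 2 of the first and of the second quantification. Clec4f in replicate 1 consists of Clec4f-202 alone, from 2 counts, and Csf1r-205 appears only in replicate 2 of the first quantification, at 15.4%.

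Other genes of macrophages gave a background to the 10. Of 22 further macrophage genes, 10 were called higher in replicate 2 and none lower, with a median log2 ratio of 0.32. With total counts 7 were higher and 3 lower, and with spike-in totals 5 and 5. The most abundant, lysozyme Lyz2 at 39.08 and 31.98 TPM and the scavenger receptor Stab1 at 30.3 and 30.7 TPM, had log2 ratios of -0.06 and 0.23, of which Stab1 alone was called with TMM. Lyz2 was called lower under both other scalings, at -0.29 and -0.42, and Stab1 was not called by total counts (-0.01) and was called lower by spike-in totals (-0.13). The 2 called genes that differed at least 2-fold with TMM were Folr2, a folate receptor of resident macrophages, at 0.76 and 1.74 TPM, and Siglec1, a sialic acid receptor, at 1.03 and 1.95 TPM. Siglec1 was called under all 3 scalings, but at log2 ratios of 0.95 by total counts and 0.82 by spike-ins it was then under 2-fold.

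Of 7 further genes known from Kupffer cells, 6 were called higher and none lower, with a median of 1.78, and 5 were at least 2-fold higher. The iron exporter Slc40a1 went from 5.40 to 21.7 TPM (log2 ratio 2.21), the complement component C6 from 1.91 to 5.80 TPM (1.78) and the ficolin Fcna from 2.14 to 5.16 TPM (a count ratio of 2.83-fold). The lectin receptor Clec1b had 17 and 87.0 counts (2.59), and the scavenger receptor Marco 1 and 26 counts, a ratio of 30.7-fold with a counting interval of 5.04 to 1258. In TPM Marco was at 0.11 and 0.42, or 0.0250 and 0.708 in the second quantification, so the size of its difference was poorly fixed. Il18bp was called at a log2 ratio of 0.43, though not with either other scaling, and the potassium channel Kcna2 was not called at 0.07. Where Clec4f and Vsig4 had 2 counts each in replicate 1, Slc40a1 had 554, C6 181 and Fcna 93.

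Neither ligand of Csf1r was called higher in replicate 2. Csf1 was at 5.74 and 5.42 TPM and not called with TMM (log2 ratio 0.16), though its ratio turned to -0.07 with total counts and was called lower, at -0.20, with spike-in totals. Il34 at 7.48 and 5.54 TPM was lower in replicate 2 (-0.40). The ratio of Csf1 to Csf1r in TPM was 0.724 and 0.478. Of the 7 colony-stimulating factors and receptors, 5 could be tested, and the only one called higher was Csf2rb, the shared beta chain of the GM-CSF receptor, at 0.82 from 104 and 156 counts. Its TPM went the other way, from 1.61 to 1.17 and, in the second quantification, from 3.02 to 2.28, so its direction depended on the measure. Its partner chain Csf2ra, at 10.7 and 7.75 TPM, was not called with TMM (-0.21) and was called lower by total counts (-0.44) and spike-ins (-0.57).

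Among 11 transcription factors of macrophages, 3 were called higher and 2 lower, with a median of 0.10. The split was 3 and 5 by total counts and 3 and 6 by spike-in totals. Those higher under each included the oxysterol receptor Nr1h3 (10.4 and 24.5 TPM, log2 ratio 1.40) and its partner Rxra (15.2 and 44.0 TPM, 1.66). Nr1h3 and Rxra are also active in hepatocytes. Lower with TMM were Zeb2 (55.8 and 42.8 TPM, -0.19) and Id1 (30.6 and 20.2 TPM, -0.36). Spi1, which encodes PU.1, was at 1.53 and 1.61 TPM and was not called, and Spic, a factor of iron-handling macrophages, was at 0.43 and 0.47 TPM.

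Timd4 and Vsig4 were set beside other receptors of their kind. Of 10 phosphatidylserine receptors and bridging proteins tested, Timd4 among them, 4 were called higher and 2 lower with TMM. This became 2 and 4 by total counts and 2 and 6 by spike-in totals. The 2 still called higher were Timd4 itself and Stab2, which is also in the list of liver sinusoidal endothelium. The receptor tyrosine kinase Mertk, at 3.92 and 4.25 TPM (log2 ratio 0.35), was not called by total counts or spike-in totals. The bridging protein Mfge8, at 96.2 and 63.6 TPM, was lower (-0.39). Of 7 complement receptors tested, Vsig4 was the only one called with TMM and the only one called higher with either other scaling. The integrin chain Itgb2, at 1.82 and 1.90 TPM, had a log2 ratio of 0.30, and Cr1l, at 25.8 and 23.7 TPM, of 0.05.

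Among 23 sequence relatives of the 10 genes, 16 could be tested, with 10 called higher and 4 lower, against 7 and 6 by total counts and 6 and 6 by spike-in totals. Lamp1 and Lamp2, relatives of Cd68 and general lysosomal proteins, were at 127 and 140 TPM (0.37) and at 72.3 and 122 TPM (0.91). Timd2, a TIM family member like Timd4, went from 2 to 889 counts, a ratio of 524-fold with a counting interval from 145-fold upward. Cd207, a lectin relative of Clec4f, had 2 and 30 counts (17.7-fold, from 4.49-fold upward), and Adgre4, a relative of Adgre1, 10 and 57 counts (log2 ratio 2.75). Cd44, a hyaluronan receptor like Lyve1, went the other way, at 32.01 and 14.55 TPM (-0.91).

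Many markers of other liver cells were also higher in replicate 2. All 7 genes of liver sinusoidal endothelium were called higher, with a median log2 ratio of 2.71 and a summed level of 6.38 and 43.3 TPM. Stab2, a hyaluronan scavenger receptor, went from 0.10 to 10.5 TPM (6.73), Dnase1l3 from 0.05 to 4.32 TPM (6.60) and the lectin Clec4g from 1 to 397 counts, a count ratio of 468-fold with an interval from 83.6-fold upward. Gpr182 was at 3.30 and 4.71 TPM (0.74). Of 4 stellate cell genes 3 were called higher, with a median of 2.83, among them the lectin Colec11 at 1.67 and 6.39 TPM. The fourth, Ecm1, was at 163 and 144 TPM, not called with TMM and called lower under both other scalings, and held most of the list's summed level of 166 and 158 TPM. Of 4 bile duct genes 3 were called higher with TMM and 2 with either other scaling, at a summed level of 2.33 and 3.26 TPM. The keratin Krt19 was at 1.06 and 1.78 TPM, and Sox9, at 0.57 and 0.72 TPM, lost its call under both other scalings. All 9 hepatocyte genes were called higher, with a median of 9.84. Albumin, Alb, went from 16.3 to 11949 TPM and the apolipoprotein Apoa2 from 2.97 to 2362 TPM. The part of these cells in the Kupffer values was not tested.

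Counting error limited how far the Kupffer genes could be set against the liver genes. The count ratio of Alb between the libraries was 858-fold (808 to 912) and that of Stab2 106-fold (67.8 to 177). The interval of Clec4f, 111 to 3333, held the first and overlapped the second. It rests on 2 counts in replicate 1, so whether the proportion of Clec4f to either gene changed could not be judged. In TPM, Clec4f over Alb was 0.00736 in replicate 1 and 0.000807 in replicate 2 (0.0105 and 0.000984 in the second quantification). Clec4f over Stab2 was 1.2 and 0.916 (0.489 and 1.36 in the second quantification). In both quantifications the 2 counts of Clec4f were on the short transcript Clec4f-202, where a count weighs more in TPM. These TPM ratios thus stand higher in replicate 1 than ratios of counts would. The intervals of Cd5l, Vsig4 and Timd4 lay below that of Alb, and that of Timd4 also lay below that of Stab2. Lyve1 stood at 31.1 times the TPM of Stab2 in replicate 1 and 0.374 times in replicate 2 (9.69 and 0.518 in the second quantification). Its ratio to Flt4, a receptor of lymphatic endothelium, was 0.587 and 0.653. The 5 lymphatic genes had a median log2 ratio of 0.38, with Flt4 and the transcription factor Prox1 (14.96 and 18.40 TPM) called higher with TMM. Flt4 was not called by spike-in totals.

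**Figure D4:**
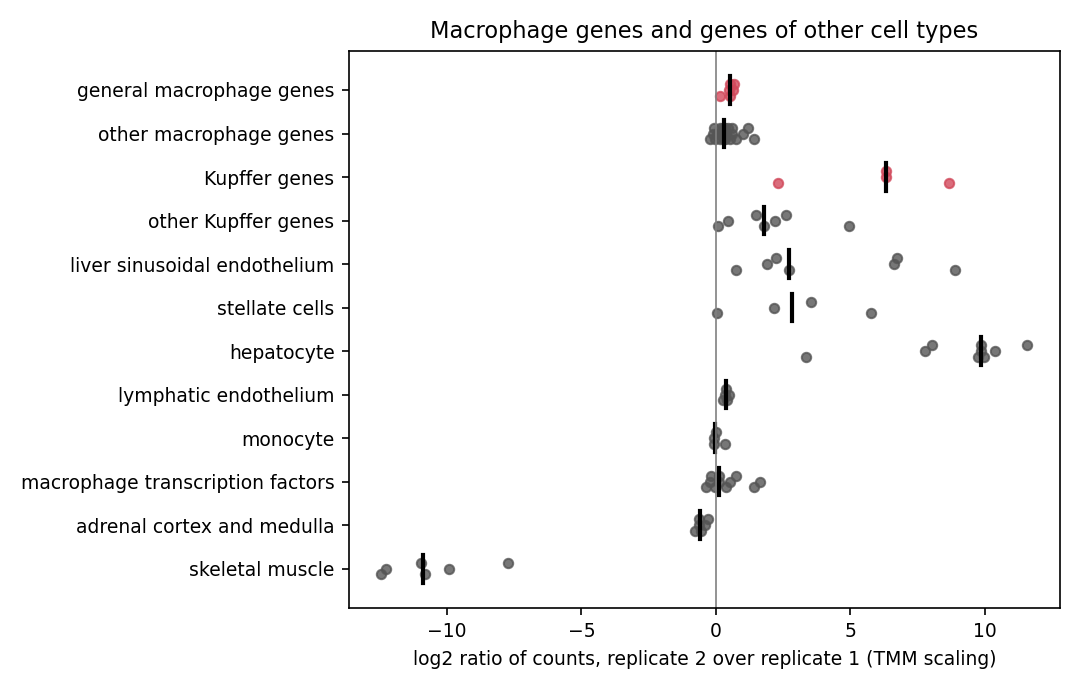
Log2 ratio of counts after TMM scaling, replicate 2 over replicate 1, for each tested gene of 12 lists, with a black bar at the median. Genes described here are red and other genes grey. The median of the Kupffer genes, 6.33, lies between those of the general genes, 0.52, and the hepatocyte genes, 9.84. Single genes of the Kupffer and hepatocyte lists overlap: Clec4f, at 8.65, lies above Cyp2e1 at 3.34, Tat at 7.78 and Apoc3 at 8.04. The median of the skeletal muscle genes is -10.88.

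Some markers of other immune cells had under 10 counts and were not tested: 5 of 6 neutrophil, 3 of 7 dendritic cell, 3 of 7 lymphocyte and 1 of 5 monocyte genes. Few of the rest were called with TMM, where 20.7% of all genes were called higher and 18.4% lower. None of 4 monocyte genes tested was called, with Plac8 at 3.44 and 3.40 TPM and Ly6c2 at 1.77 and 1.57 TPM, though Vcan, at 237 and 201 counts, was called lower by spike-in totals. None of 4 lymphocyte genes tested was called, and the 7 lymphocyte genes summed to 0.70 and 1.11 TPM. Their counts were too few to show a 2-fold difference: Cd79a, at 9 and 18 counts, had a log2 ratio of 1.24 and was not called. The 6 neutrophil genes summed to 0.56 and 1.06 TPM, with only S100a9 tested and called, at 1 and 10 counts. Of 4 dendritic cell genes tested, Clec9a was called higher, at 2 and 14.0 counts. Zbtb46, which endothelium also expresses, was at 5.90 and 4.78 TPM, not called with TMM and called lower under both other scalings.

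Of 4 genes known from peritoneal macrophages, which also express Timd4, 2 were higher and 2 lower. Prg4 went from 2.81 to 7.75 TPM (log2 ratio 2.24) and Cxcl13 from 0.39 to 1.32 TPM (1.99). Gata6, which adrenal tissue also expresses, was at 28.8 and 21.8 TPM (-0.18) and Alox15 at 1.24 and 0.55 TPM (-0.95). Of 3 genes of iron-handling macrophages of the spleen, 1 was called higher. The ratio of Timd4 to Mertk was 0.0510 in replicate 1 and 0.198 in replicate 2.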

How the data were processed

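Total RNA of 2 adrenal libraries was measured. Per the deposited text notes, each was quantified in 2 ways on mm10 with annotation M21: first from reads aligned to transcripts, then directly from reads with an index. No tool name, version or strand setting is given in the sources used here. Per the file headers, the authors' first tables hold expected counts and TPM per gene and transcript, and the percent of a gene's TPM on each transcript. Estimated counts and TPM of the authors' second quantification are per transcript and were summed per gene. TPM is relative to all listed sequences, so abundant RNAs lower that of other genes. The deposited bounds of TPM and the posterior SD of each count, treated as a score, were used as given. That SD was 0 for all 10 genes in both libraries, and how the bounds were made is not given in the sources used here.

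Symbols, biotypes and coordinates came from GENCODE M21, which matched all 55536 gene identifiers. Annotated genes held 34987819 and 34835147 counts. Spike-ins held 0.839% and 0.915% of counts, and 26249 entries that name no gene held 2.27e-05% and 1.91e-05% and stayed out of library sizes and tests. Expected counts were rounded, and genes with at least 10 counts in both libraries together were tested by an exact binomial test, two-sided by doubling the smaller tail, with library sizes scaled by TMM in edgeR 4.0.16, with Benjamini-Hochberg adjustment. Factors were 1.08 and 0.923. Intervals of ratios are 95% Clopper-Pearson and cover counting error only. The script was tested on simulated data. Alternatives were total counts, spike-in totals, DESeq2 1.42.0 size factors, the second quantification, no filter, at least 50 counts, and edgeR's exact test with an assumed biological coefficient of variation of 0.2.

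The members, the 23 lists and the tests were chosen with earlier results of these data known. The rule for named genes takes all 10 members, the 2 genes of highest mean TPM of each other list, and genes of the Kupffer, colony-stimulating factor, sinusoidal endothelium and peritoneal lists where a result turns on them. Not every gene the rule takes is named, and listed genes without a value stand only in the counts of their lists. Folr2, Siglec1, C1qb, Nr1h3, Id1, Spi1, Mertk, Vcan, Timd2, Cd207, Adgre4, Cd44 and Clec9a fall outside this rule and were chosen after their values were seen. RefSeq promoters (GRCm38.p6) matched 6 of the 10 genes.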

Additional observations from a re-analysis of the deposited data

How the results depend on the processing

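The Kupffer genes kept their call, direction and a difference of at least 2-fold under all 7 alternatives, and the general genes did not. With an assumed biological coefficient of variation of 0.2 in edgeR's exact test, 4 of the 10 genes were higher in place of 9, the 4 being the Kupffer genes, and 0 of the 6 general genes in place of 5. With spike-in totals 3 general genes were higher. The log2 ratio of Cd68 reversed, to -0.077 when scaled by total counts and to -0.20 by spike-in totals. Over single ratios, 60 kept their direction and call, 8 kept the direction and lost the call and 2 reversed. The 2 changes of filter and the assumed variation used the same counts and TMM scaling, so direction and fold could barely move there. The DESeq2 size factors, 1.08 and 0.923, were also close to the TMM factors. All genes called higher numbered 4097, but 2515 with total counts, 2138 with spike-in totals and 1301 with the assumed variation, and those called lower 3641, but 8524, 10558 and 260. These counts depend on the scaling by its construction. The ratio of Kupffer to general TPM, 0.214 as a mean of the libraries, ranged from 0.0116 to 0.416 when 1 library was left out, since it lies with the library kept, and was 0.234 in the second quantification.

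With 1 library on each side, leaving out a library ends each comparison between them. No paired analysis was possible because there is 1 group. In replicate 1, Clec4f and Vsig4 had 2 counts each, which allow 0.242 to 7.22 by an exact Poisson interval, so the size of their ratios is bounded loosely and its direction is not.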
